A study of Mus musculus with 6 samples.

Results

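B cell identity genes were examined in T follicular helper (Tfh) cells sorted from the spleen of mice. The genes were chosen by name, for what they are known to do, but with earlier results of these data known. They were Cd79a, Cd79b, Blnk, Ms4a1, Cd22, Cr2, Fcer2a, Pax5 and Ebf1. These are 9 of the 53379 genes counted in each library, and all 9 passed the filter on low counts that left 14555 genes for testing. Poly(A) RNA was sequenced from 3 Prdm1-CKO mice and 3 control (CTL) mice. All were females of 6 to 8 weeks, taken 7 days after immunization with the hapten-carrier NP-CGG in complete Freund's adjuvant, and the sorted cells were viable, TCRβ+, CD4+, CXCR5+ and PD1+. Prdm1-CKO mice carried Prdm1 fl/fl with a CD11c-CRE transgene, whose promoter is most active in dendritic cells. CTL mice were either Prdm1 fl/fl without the Cre or Prdm1+/+ with it, but which of the CTL mice had which genotype is not labelled. The labels call the Prdm1-CKO samples Blimp1 KO in one place and Blimp1 KD in another. The deletion was directed at dendritic cells and not at the sorted T cells, in which it was not measured. The Prdm1 level of the sorted cells therefore does not check the genotype. Prdm1 was counted at 28.9, 30.0 and 27.5 CPM (counts per 1000000 counts of the library) in the CTL mice and at 30.2, 30.8 and 30.9 CPM in the Prdm1-CKO mice.

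B cells recognize antigen through a surface immunoglobulin that is held in a complex with the CD79A and CD79B chains, whose cytoplasmic tails carry the signal inward. The adaptor BLNK links the kinase SYK, recruited to those tails, to calcium signaling. CD22 damps the signal, complement receptor CR2 strengthens it, and the transcription factors EBF1 and PAX5 establish and keep the B lineage program. Tfh cells are CD4+ T cells that enter B cell follicles and help B cells there, and mature T cells are not known to run this program.

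Promoter sequence was available from RefSeq (GRCm38.p6, 250 bases before to 50 after each start) for 7 of the 9 genes. It was searched on both strands for an EBF motif (TCCC, 2 bases of any kind, GGGA), the octamer bound by POU factors (ATGCAAAT) and a PU.1 box (GAGGAA), which do not overlap in letters with each other. The 3 promoters below are shown because each holds a match to a different one of these motifs, which is in capitals and written as read on the gene's strand. Cd79a has a PU.1 box starting 140 bases before its RefSeq start (chr7:24897247-24897546, plus strand), Blnk an octamer starting 130 bases before (chr19:40994172-40994471, minus strand) and Cd22 an EBF match starting 49 bases before (chr7:30878979-30879278, minus strand). These RefSeq starts differ from the starts of the GENCODE gene spans given below. The Blnk and Cd22 stretches lie wholly inside those spans, and the Cd79a stretch holds the GENCODE start of its gene.
Cd79a: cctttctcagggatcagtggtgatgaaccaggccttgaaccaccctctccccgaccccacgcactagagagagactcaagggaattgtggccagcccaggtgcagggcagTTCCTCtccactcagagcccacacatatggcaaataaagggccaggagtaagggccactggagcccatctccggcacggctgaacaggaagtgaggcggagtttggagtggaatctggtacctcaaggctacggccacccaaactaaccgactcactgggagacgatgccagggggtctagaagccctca
Blnk: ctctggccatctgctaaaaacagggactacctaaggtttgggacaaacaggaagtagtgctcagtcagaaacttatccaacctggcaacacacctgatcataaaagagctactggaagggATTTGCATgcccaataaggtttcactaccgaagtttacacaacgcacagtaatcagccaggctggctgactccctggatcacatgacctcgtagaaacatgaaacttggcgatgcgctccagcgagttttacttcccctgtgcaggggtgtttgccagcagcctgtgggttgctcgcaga
Cd22: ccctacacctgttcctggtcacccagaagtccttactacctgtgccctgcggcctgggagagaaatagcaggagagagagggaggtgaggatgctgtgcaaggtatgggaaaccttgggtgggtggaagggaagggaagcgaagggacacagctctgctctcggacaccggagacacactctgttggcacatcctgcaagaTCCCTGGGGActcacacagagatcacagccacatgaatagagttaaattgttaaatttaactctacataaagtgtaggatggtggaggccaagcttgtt
The EBF letters occur in 0.904% of 32851 mouse promoters of this length, the octamer in 1.74% and the PU.1 box in 28.3%. Of the 7 genes matched, the EBF letters were found in 1, the octamer in 1 and the PU.1 box in 2, the other being a later start of Ebf1. A match is a string of letters and not a measured binding site.

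The libraries held between 7147601 and 16973392 counts, so that 3 counts, the limit that a count of 0 allows, corresponded to between 0.169 and 0.444 CPM. CTL replicate 2 stood apart from the other 5 libraries. It had 16650 genes with a count against 18480 to 21501 elsewhere, and 6.70% of the tested genes were at 0 in it against 0.0824% to 1.51% elsewhere. The log2 fold changes of the 9 genes and the counts of the gene lists are given with and without it, and the fold changes of other single genes only with it. For the T cell gate, all 10 examined (Cd3d, Cd3e, Cd3g, Cd247, Cd4, Cd28, Lck, Cd2, Cd5 and Trac) were tested, and together they summed to between 6644 and 7834 CPM in every mouse. The 9 B cell genes summed to between 99.9 and 208.4 CPM.

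Per length of transcript, the order of the 9 genes was led by the receptor chains. Median levels in TPM (the share of a library's transcripts, scaled by exon length) over the 6 mice were 88.8 for Cd79b, 45.4 for Cd79a, 26.5 for Cd22, 10.6 for Ms4a1, 3.74 for Blnk, 1.53 for Fcer2a, 0.893 for Cr2, 0.689 for Pax5 and 0.400 for Ebf1. Cd79b exceeded Cd79a in 6 of 6 mice, Cd79a exceeded Cd22 in 5, and Cd22 exceeded Ms4a1 in 6 with ranges that did not overlap. Ms4a1 exceeded Blnk in 6 of 6 mice. At the low end the order was not settled, as Fcer2a exceeded Cr2 in 3 mice, Cr2 exceeded Pax5 in 4 and Pax5 exceeded Ebf1 in 3. For scale, the T cell gene Cd3e had a median of 449.6 TPM.

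Cd79a and Cd79b encode the paired signaling chains of the B cell receptor. Cd79a (chr7:24897381-24902197, plus strand, coordinates on GRCm38 throughout) was at 25.9, 6.75 and 17.8 CPM in CTL replicates 1, 2 and 3, and at 32.4, 19.7 and 31.0 CPM in the Prdm1-CKO replicates. CTL replicate 1 lay inside the Prdm1-CKO range, so the groups overlapped, and CTL replicate 2 was the lowest library. The log2 fold change of Prdm1-CKO over CTL was 0.72 (SE 0.46), with an adjusted p of 0.996 by edgeR's quasi-likelihood test, and 0.33 without CTL replicate 2. Cd79b (chr11:106311341-106314762, minus strand) was at 44.0, 11.7 and 35.4 CPM in the CTL mice and at 58.9, 44.2 and 54.4 CPM in the Prdm1-CKO mice. Every Prdm1-CKO mouse was above every CTL mouse, but the gap between 44.0 and 44.2 CPM was very small. Its log2 fold change was 0.79 (SE 0.42), with an adjusted p of 0.996 in the same edgeR fit, and the exact two-sided permutation test over mice gave 0.1, the smallest p that 3 against 3 allows. Without CTL replicate 2 its log2 fold change was 0.39. The 2 chains moved together from mouse to mouse: the ratio of Cd79b to Cd79a counts was 1.70, 1.74 and 1.99 in the CTL mice and 1.82, 2.24 and 1.76 in the Prdm1-CKO mice.

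Blnk (chr19:40928927-40994535, minus strand), the adaptor downstream of these chains, was counted 114, 0 and 28 times across the CTL replicates, against 201, 76 and 144 times across the Prdm1-CKO replicates. These were 7.81, 0 and 4.14 CPM against 11.3, 7.73 and 9.86 CPM. CTL replicate 1 lay just above the lowest Prdm1-CKO mouse, and CTL replicate 2 had no count at a depth where 3 counts would be 0.355 CPM. The log2 fold change was 1.25 (SE 1.03, edgeR adjusted p 0.996), and it ranged between 0.67, without CTL replicate 2, and 2.22 when single mice were left out.

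**Figure D1:**
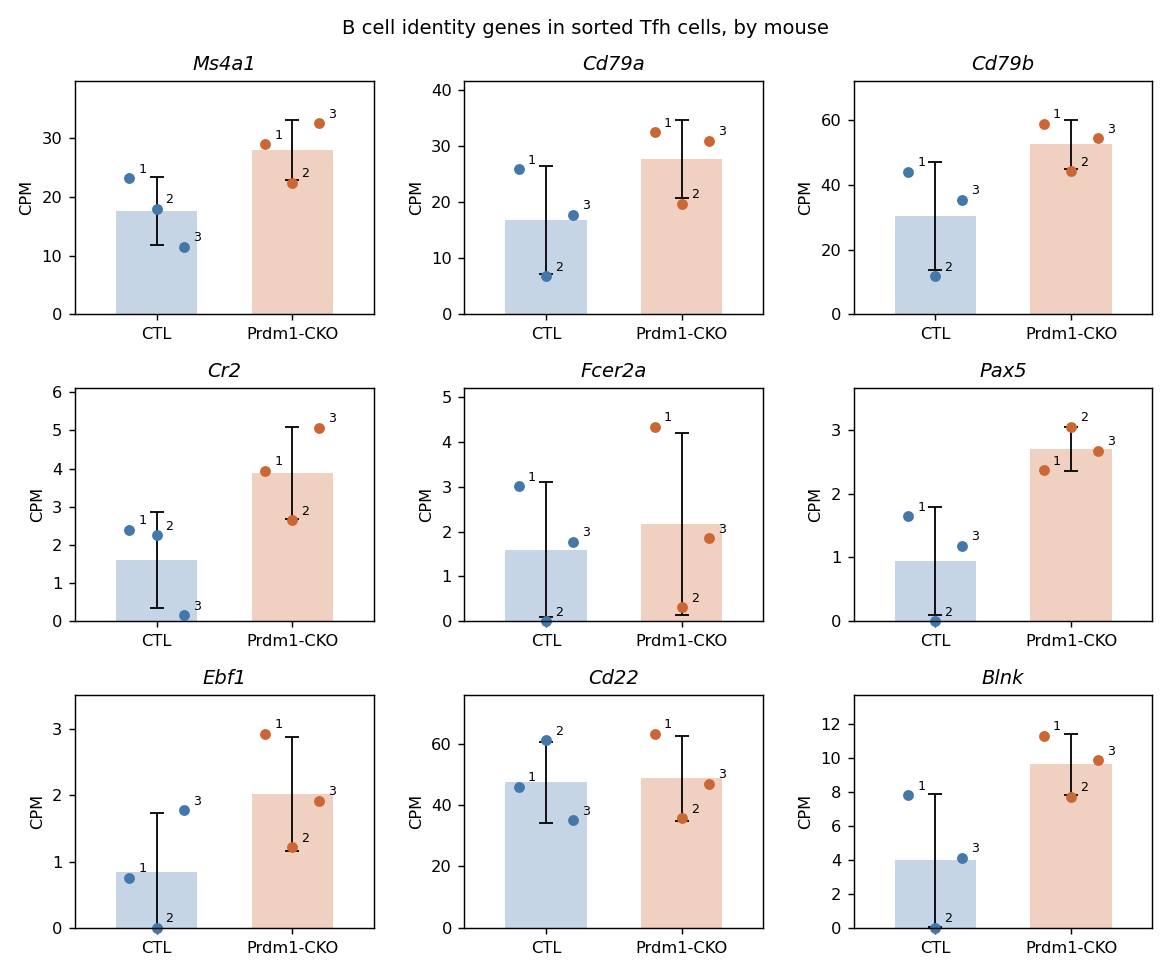
CPM of each of the 9 B cell identity genes (vertical axes, each starting at 0) in the 3 CTL and 3 Prdm1-CKO mice, with 1 numbered point a mouse, bars from 0 to the group mean and error bars of 1 SD (n = 3). Cd79b, Cr2 and Pax5 are the 3 genes with no overlap between the groups, and CTL replicate 2 is at 0 for Fcer2a, Pax5, Ebf1 and Blnk.

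Among the surface molecules, Ms4a1 (chr19:11249675-11266241, minus strand), which encodes CD20, was at 23.2, 18.0 and 11.5 CPM in the CTL mice and at 28.9, 22.4 and 32.5 CPM in the Prdm1-CKO mice. Only Prdm1-CKO replicate 2 fell within the CTL range. Ms4a1 had the lowest unadjusted p of the 9 genes in the edgeR fit, 0.0624, with a log2 fold change of 0.66 (SE 0.31) and an adjusted p of 0.996. The fold change was 0.67 without CTL replicate 2. Cd22 (chr7:30865402-30880342, minus strand), the inhibitory sialic acid-binding receptor, was at 45.9, 61.1 and 35.1 CPM in the CTL mice and at 63.3, 35.7 and 47.0 CPM in the Prdm1-CKO mice. Its groups overlapped almost wholly, with a log2 fold change of 0.04 (SE 0.28, edgeR adjusted p 0.998) that became 0.26 without CTL replicate 2. Its exons overlap an antisense gene, Gm29439, with no count in any mouse. In CTL replicate 2, where most of the other genes were lowest, Cd22 was higher than in the other CTL mice.

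The complement receptor gene Cr2 (chr1:195136811-195176716, minus strand) was counted 35, 19 and 1 times across CTL replicates 1, 2 and 3, against 70, 26 and 74 across the Prdm1-CKO replicates. In CPM these were 2.40, 2.25 and 0.148 against 3.94, 2.64 and 5.07, so that the groups did not overlap and the low value belonged to CTL replicate 3. The log2 fold change was 1.25 (SE 0.83, edgeR adjusted p 0.996), 1.50 without CTL replicate 2 and 0.75 without CTL replicate 3. The 1 count in CTL replicate 3 is under the limit of 3 counts, 0.444 CPM in that library. Fcer2a (chr8:3681737-3694175, minus strand), the gene of the low-affinity IgE receptor CD23, was counted 44, 0 and 12 times across the CTL replicates and 77, 3 and 27 times across the Prdm1-CKO replicates. Its lowest Prdm1-CKO value, 0.305 CPM, was below those of CTL replicates 1 and 3, at 3.01 and 1.78 CPM. The log2 fold change of 0.43 (SE 1.24, edgeR adjusted p 0.996) turned to -0.14 without CTL replicate 2 and to -0.55 without Prdm1-CKO replicate 1. Cr2 and Fcer2a are also genes of follicular dendritic cells. Of 7 markers of those cells Vcam1 and Mfge8, which macrophages also express, were tested. Their log2 fold changes were above 0 for 1 and below for 1 (median 0.18). Without CTL replicate 2, 3 markers were tested, 1 above 0 and 2 below (median -0.21). The 6 markers found summed to 68.0 to 170.0 CPM in the CTL mice and 109.5 to 159.6 CPM in the Prdm1-CKO mice. Cxcl13 was between 0 and 0.888 CPM, Clu and Madcam1 were at or below 0.451 CPM, and Pdpn had no count in any mouse.

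The transcription factor genes were among those of few counts. Pax5 (chr4:44524757-44710487, minus strand) was counted 24, 0 and 8 times across the CTL replicates and 42, 30 and 39 times across the Prdm1-CKO replicates, or 1.64, 0 and 1.18 CPM against 2.37, 3.05 and 2.67 CPM. The groups did not overlap, and the Prdm1-CKO mice were close to each other. Its log2 fold change was 1.48 (SE 0.99, edgeR adjusted p 0.996), and 0.90 without CTL replicate 2, where it had no count. Exons of Pax5 overlap 2 other genes, Gm12462 with no count in any mouse and 5730488B01Rik with at most 7 counts. Ebf1 (chr11:44617317-45008091, plus strand) was counted 11, 0 and 12 times across the CTL replicates and 52, 12 and 28 times across the Prdm1-CKO replicates. Its CPM values, 0.754, 0 and 1.78 against 2.93, 1.22 and 1.92, overlapped through CTL replicate 3, and its log2 fold change was 1.29 (SE 1.06, edgeR adjusted p 0.996), and 0.72 without CTL replicate 2.

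Read together, none of the 9 genes passed an adjusted p of 0.05 in edgeR, where 0% of the 14555 genes tested were called higher and 0% lower. Before adjustment, none of the 9 passed 0.05 in edgeR, beside 0.928% of all genes that did so with a higher level and 1.42% with a lower one. Ms4a1 alone passed it in DESeq2's Wald test, beside 1.01% of genes passing with a higher level. The fitted log2 fold change was above 0 for 9 of the 9 genes, beside 51.1% of all genes, with a median of 0.79 beside 0.01 for all genes. It was above 1 for 4 of the 9, Cr2, Pax5, Ebf1 and Blnk, beside 3.3% of all genes. Without CTL replicate 2 it was above 1 for 1, Cr2, beside 3.76%. Without CTL replicate 3, Cr2 was at 0.75, and Pax5, Ebf1 and Blnk were at 1.63, 2.30 and 1.27. The 9 genes were measured in the same 6 mice, so the 9 signs are not 9 separate observations. The list was also chosen with earlier results of these data known. In 3 of the 9, Cd79b, Cr2 and Pax5, all Prdm1-CKO mice were above all CTL mice, beside 4.56% of all genes, and in none were all below, beside 3.86%. Without CTL replicate 2, 8 of the 9 were above 0, beside 48.6% of genes, with a median of 0.67, and 3 of the 9 did not overlap, beside 7.69% of genes. Without Prdm1-CKO replicate 1, 7 of the 9 were above 0 and 3 did not overlap, beside 8.13% of genes. The count without overlap was 6 when CTL replicate 1 was left out (14.1% of genes), 4 for CTL replicate 3 (13%), 7 for Prdm1-CKO replicate 2 (8.95%) and 3 for Prdm1-CKO replicate 3 (7.54%). In bulk RNA from sorted cells, fewer cells of a type and less RNA per cell cannot be told apart.

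**Figure D2:**
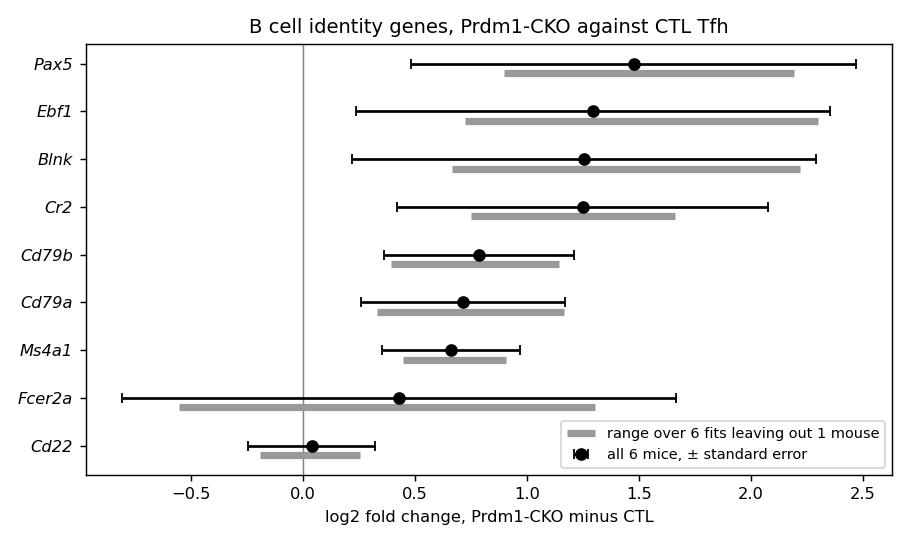
Log2 fold change of Prdm1-CKO over CTL with its standard error (horizontal axis) for the 9 genes, from the edgeR fit over 6 mice, and in grey the range over the 6 fits that leave out 1 mouse. All 9 points lie to the right of 0, from 0.04 for Cd22 to 1.48 for Pax5, the grey ranges of Fcer2a and Cd22 cross 0, and none passed an adjusted p of 0.05.

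The mice differed within a group as well as between groups. The 9 genes summed to 154.5, 99.9 and 108.7 CPM in the CTL mice and to 208.4, 137.0 and 186.2 CPM in the Prdm1-CKO mice. CTL replicate 1 thus exceeded Prdm1-CKO replicate 2. The deepest libraries were Prdm1-CKO replicates 1 (16973392 total counts) and 3 (14885913). Next came CTL replicate 1 (14177558) and Prdm1-CKO replicate 2 (9753574), then CTL replicates 2 (8623180) and 3 (7147601). The sums fell in the same order, except that CTL replicate 3 exceeded CTL replicate 2. Whether library depth played a part in these differences or in the fold changes of the 9 genes was not tested. Prdm1-CKO replicate 1 was the highest of the 6 mice for 6 genes, Prdm1-CKO replicate 3 for 2 and Prdm1-CKO replicate 2 for 1, Pax5. Within its own group, Prdm1-CKO replicate 2 was the lowest mouse for 8 of the 9 genes. CTL replicate 1 was the highest CTL mouse for 7 genes, and the lowest of all mice was CTL replicate 2 for 6 genes and CTL replicate 3 for 3.

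CTL replicate 2 had no count for Fcer2a, Pax5, Ebf1 and Blnk. Each of these 4 had at least 1 count in the other 5 mice, a pattern shared by 5.72% of the tested genes. Its remaining B cell gene counts were distributed unlike those of any other mouse. Cd22 made up 61.2% of the summed counts of the 9 genes there (95% Clopper-Pearson interval 57.8% to 64.5%, counting error only), against 25.2% to 32.2% in the other 5. Cd79b made up 11.7% (9.65% to 14.1%) against 28.3% to 32.5%, and Cd79a 6.76% (5.16% to 8.67%) against 14.4% to 16.8%. Blnk at 0 of 843 counts was under the 3.81% to 5.64% of the other mice. Set against Cd79a, Cd22 had 9.05 counts for each Cd79a count in CTL replicate 2 (exact interval 6.88 to 12.1) and between 1.52 and 1.98 in the others. Ms4a1 had 2.67 (1.95 to 3.68) there and between 0.650 and 1.13 elsewhere, while Cd79b kept its ratio at 1.74. The receptor chains were thus low together in this library, whereas Cd22 and Ms4a1 were not low with them.

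**Figure D3:**
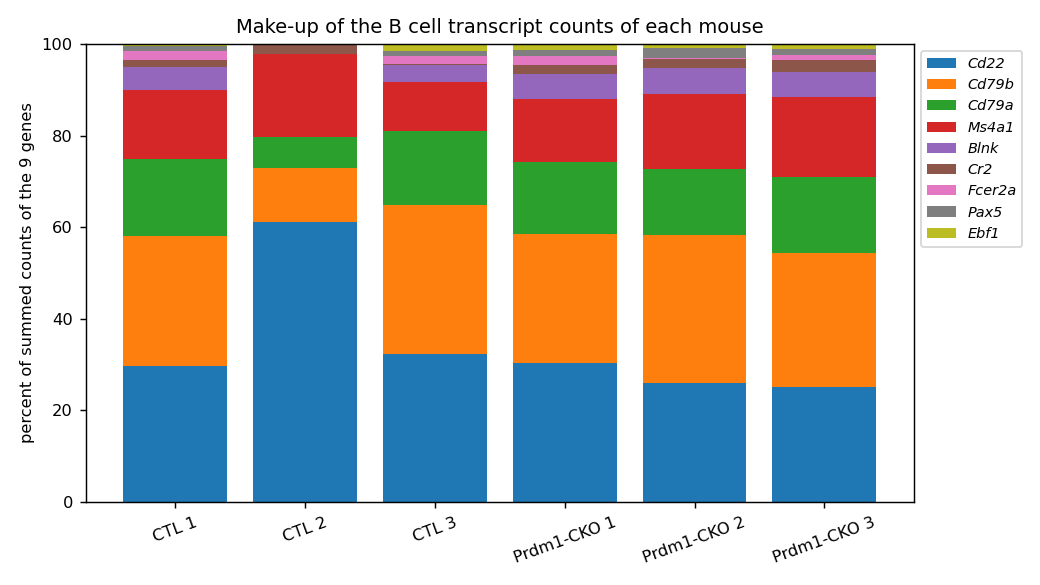
Share of each gene in the summed counts of the 9 genes, in percent (vertical axis, stacked from 0 to 100), with 1 bar for each of the 6 mice. Cd22 takes 61.2% of the bar of CTL replicate 2 and between 25.2% and 32.2% of the other 5 bars.

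Likeness between genes was measured as the root mean square difference of their log2 CPM profiles over mice, each profile centred on its own mean. Of 36 pairs, Cd79a and Cd79b were the nearest, at 0.140 log2 units over 6 mice and 0.143 over the 5 mice without CTL replicate 2. The median over pairs was 1.21 with that library and 0.607 without it, and 30 of 36 pairs were nearer without it. Cd79a and Cd22 were 0.868 apart over 6 mice and 0.135 over 5, and Ms4a1 and Blnk were 1.96 and 0.121 apart. Over 6 mice, Cd79a and Cd79b lay at 0.190 and 0.208 from the mean profile of the 9, with 5 and 7 genes outside the 9 nearer than them. Cr2 at 1.31, Blnk at 1.26, Fcer2a at 1.02 and Cd22 at 1.01 were farther from it than the median candidate gene, at 0.966. In CTL replicate 2, Fcer2a, Pax5, Ebf1 and Blnk had no count and share a log2 CPM of -2.58. That value is set by the prior count of 2, so the mean profile and the distances over 6 mice depend on it. Over the 5 mice, the more abundant genes lay close to the mean profile of the 9, Blnk at 0.134, Cd79a at 0.150, Ms4a1 at 0.196, Cd79b at 0.209 and Cd22 at 0.220. Pax5 lay at 0.409, and Ebf1 at 0.573, Fcer2a at 0.977 and Cr2 at 1.06 were again farther than the median gene, at 0.532. Each of the 9 is itself part of the mean profile. Over the 5 mice, genes outside the 9, such as F2r at 0.0614, lay nearer to it than any of the 9. A common profile was thus seen for some of the 9 genes and not for all, and it was not particular to them.

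**Figure D4:**
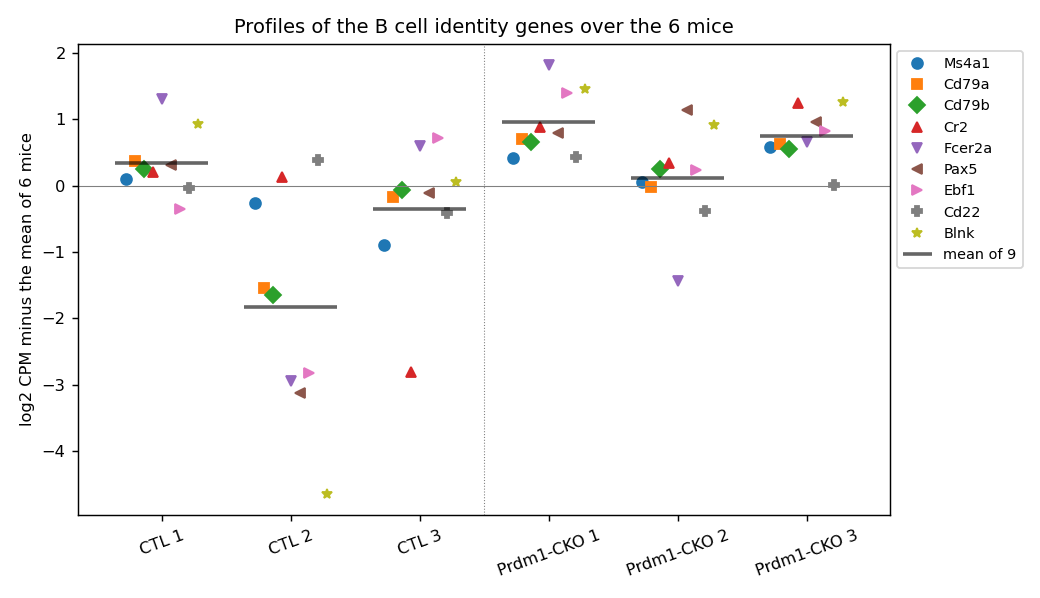
Log2 CPM of each of the 9 genes minus its own mean over the 6 mice (vertical axis), with 1 column of points a mouse and a dark line at the mean of the 9 genes. The mean lies at -1.83 in CTL replicate 2 and between -0.34 and 0.95 in the other 5 mice, and Cd22 and Cr2 lie above 0 in CTL replicate 2. The points of Fcer2a, Pax5, Ebf1 and Blnk in CTL replicate 2 come from counts of 0 and depend on the prior count.

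Genes outside the 9 with profiles near their mean profile over 6 mice included Fcmr, the Fc receptor for IgM, at 0.156 log2 units, and Asph at 0.157, followed by Ssh3, Tifa, Zgrf1, Acox3, Rhbdf2, Il1b and Osbpl1a at 0.175 to 0.229. The median of 14432 candidate genes was 0.966. Fcmr was at 31.0, 7.34 and 19.4 CPM in the CTL mice and at 37.0, 24.8 and 43.1 CPM in the Prdm1-CKO mice. Il1b, the gene of the inflammatory cytokine IL-1β, was at 50.4, 8.29 and 27.1 CPM against 50.0, 41.0 and 60.4 CPM. All 9 were lowest in CTL replicate 2, as were 34.9% of the tested genes. The search favored such genes, because the mean profile they were matched to is itself lowest there, at -1.83. The order depended on that library: over the 5 other mice Fcmr ranked 30 and Il1b 170, and F2r and Il13ra1 were the nearest, at 0.0614 and 0.0694, beside a median of 0.532.

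Many signaling partners of the receptor are also used by T cells or myeloid cells. All 15 genes of a B cell receptor signaling list were tested, 10 with a log2 fold change above 0 and 5 below (median 0.42; 10 and 5, median 0.16, without CTL replicate 2), and none passed an adjusted p of 0.05 in edgeR. The most abundant were the phosphatase genes Ptpn6 and Inpp5d and the kinase gene Lyn, with log2 fold changes of 0.04 (SE 0.15), -0.10 (SE 0.17) and 0.43 (SE 0.22). Siglecg, an inhibitory receptor related to Cd22, was at 17.4, 10.7 and 8.29 CPM in the CTL mice and at 19.4, 23.4 and 20.7 CPM in the Prdm1-CKO mice. It was the only one of the 15 in which the groups did not overlap, beside 4.56% of all genes with every Prdm1-CKO mouse above every CTL mouse. Its log2 fold change was 0.79 (SE 0.33, edgeR unadjusted p 0.0400, adjusted p 0.996). Btk, a kinase of the pathway, differed by -0.02 (SE 0.20) on the log2 scale.

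Of 18 other B lineage genes, 11 were above 0 and 7 below (median 0.18), and 13 and 5 without CTL replicate 2 (median 0.11). The most abundant were Cd37, Ikzf3 and Irf8, at -0.06 (SE 0.16), -0.02 (SE 0.14) and 0.05 (SE 0.19) on the log2 scale. Spib, a transcription factor of B cells and plasmacytoid dendritic cells, was at 13.0, 0 and 8.14 CPM in the CTL mice and at 19.7, 14.9 and 21.5 CPM in the Prdm1-CKO mice. Tnfrsf13c, which encodes the BAFF receptor, was at 4.86, 1.90 and 4.73 CPM against 9.41, 5.49 and 9.59 CPM. With Ly6d these were the 3 of the 18 that did not overlap between groups, all higher in Prdm1-CKO, beside 4.56% of all genes. Pou2af1, a coactivator bound to octamer factors, went the other way, with 42.0, 53.8 and 71.6 CPM against 42.9, 29.6 and 38.2 CPM and a log2 fold change of -0.59 (SE 0.25, edgeR unadjusted p 0.0467, adjusted p 0.996). It was not low in CTL replicate 2.

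The immunoglobulin constant and class II lists each had a larger sum than the 9 genes in every mouse. Of 11 immunoglobulin constant genes, 10 were tested, with 9 above 0 and 1 below (median 1.15). Without CTL replicate 2, 11 were tested, with 9 above 0 and 2 below (median 0.67). They summed to between 2921 and 5295 CPM in the CTL mice and between 4414 and 7093 CPM in the Prdm1-CKO mice. Ighm, Igkc and Igha were the most abundant of them, with log2 fold changes of 0.45 (SE 0.22), 0.52 (SE 0.33) and -0.05 (SE 0.89). Ighd, the constant gene of IgD on naive B cells, was at 17.3, 8.65 and 15.1 CPM against 29.7, 19.5 and 25.7 CPM, without overlap (log2 fold change 0.86, SE 0.32, edgeR unadjusted p 0.0279, adjusted p 0.996). It was 1 of 2 tested genes of this list with every Prdm1-CKO mouse above every CTL mouse, beside 4.56% of all genes. Of 9 MHC class II genes, 8 were above 0 and 1 below both with CTL replicate 2 (median 0.66) and without it (median 0.30), and their sum ranged between 1529 and 4337 CPM against 3878 and 6546 CPM, lowest in CTL replicate 2. Cd74, H2-Ab1 and H2-Aa led that list, at 0.59 (SE 0.38), 0.68 (SE 0.38) and 0.71 (SE 0.44) on the log2 scale. Of 6 early B progenitor genes only Dntt was tested, with a log2 fold change of 1.25, or 0.80 without CTL replicate 2. Rag1, Rag2, Vpreb2 and Igll1 had no count in any mouse. Of 6 marginal zone B genes, led by Cd9, Dtx1 and Cd1d1, 3 were above 0 and 3 below (median -0.02), and 2 and 4 without CTL replicate 2 (median -0.05).

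Markers of other cells moved across the same mice. Of 10 macrophage markers, led by Csf1r, Cd68 and Hmox1, 9 were tested and 9 of these were above 0 (median 0.46; 10 of 10, median 0.09, without CTL replicate 2), with sums of 517 to 1567 CPM in the CTL mice and 1133 to 1553 CPM in the Prdm1-CKO mice. Their lowest sum was that of CTL replicate 2, where Adgre1, the gene of F4/80, was at 2.84 CPM against 52.4 to 109.6 CPM in the other mice, and Marco was at most 3.49 CPM in any mouse. All 6 plasma cell markers, led by Jchain, Xbp1 and Irf4, were above 0 (median 0.41; 5 of 6, median 0.24, without CTL replicate 2), with sums of 482 to 735 CPM against 735 to 941 CPM. Of 6 erythroid markers, led by Hbb-bs, Hba-a1 and Hbb-bt, 4 were tested and 4 were above 0 (median 1.52, or 1.40 without CTL replicate 2), with sums of 6.40 to 17.6 CPM against 11.7 to 46.9 CPM. Of 7 dendritic cell markers, led by Cd209a, Itgax and Flt3, 6 were tested, 3 above and 3 below 0 (median 0.15, or 0.10 without CTL replicate 2), with sums of 148 to 221 CPM against 149 to 283 CPM. Of the 10 T cell markers, led by Lck, Trac and Cd4, 3 were above 0 and 7 below (median -0.05), and 0 and 10 without CTL replicate 2 (median -0.09), with sums of 6796 to 7834 CPM against 6644 to 6959 CPM. Cd4 and Cd28 were lower in all Prdm1-CKO mice than in all CTL mice, by -0.29 (SE 0.12) and -0.36 (SE 0.13) on the log2 scale with an edgeR adjusted p of 0.996 each. Of all genes, 3.86% were lower in this way. Of 8 Tfh markers, led by Cxcr5, Pdcd1 and Icos, 4 were above 0 and 4 below (median -0.01), and 2 and 6 without CTL replicate 2 (median -0.12). The part of these other cells in the values of the 9 B cell genes was not tested.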

How the data were processed

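Per the labels and the study's methods, RNA from sorted Tfh cells was made into Smart-seq2 libraries, read as pairs of 25 bp, aligned by the authors to GRCm38 (STAR 2.4.2a and GRCm38.p6 are in the submitters' processing notes) and counted per gene. The authors deposited raw counts, 1 file a mouse. Strand use in counting is not given in the sources used here, and nothing in the labels says that libraries of a group differ in batch. Gene symbols and exon lengths came from GENCODE M21, which named 53274 of 53379 identifiers. Prdm1-CKO and CTL mice were compared by the edgeR 4.0.16 quasi-likelihood test with TMM scaling and filterByExpr (R 4.3.3), with p adjusted over all 14555 genes tested, and the standard error came from the F statistic. CPM used TMM library sizes over the genes tested, log2 CPM a prior count of 2, and TPM the exon length. DESeq2 1.42.0 and limma 3.58.1 (voom) served as alternatives, and the scripts were tested on simulated data. Genes were named by rule (the 9, the 10 nearest in profile by root mean square difference, the 3 most abundant of each list, and Prdm1); other list genes, such as Siglecg, Btk, Spib, Tnfrsf13c, Ly6d, Pou2af1, Ighd, Adgre1 and Cd28, were named after their values were seen. Immunoglobulin V, D and J segments, 114 in number, were left out of the profile search. The members and lists were chosen with earlier results of these data known. Some genes and the results that need them are not reported here. Same-numbered mice of the groups were not pairs by the labels.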

Additional observations from a re-analysis of the deposited data

How the results depend on the processing

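Of 112 log2 fold changes of the 9 genes under the alternatives, 108 kept their direction. The reversed ones were Fcer2a, at -0.14 without CTL replicate 2 and at -0.55 when Prdm1-CKO replicate 1 was left out (range over left-out mice -0.55 to 1.30), and Cd22, at -0.12 without CTL replicate 3 and at -0.19 when Prdm1-CKO replicate 1 was left out (range -0.19 to 0.26). No setting gave any of the 9 genes an adjusted p below 0.686. DESeq2's Wald test called 7 genes higher and 2 lower after adjustment. Before adjustment it called 264 genes higher (1.01%) and 417 lower, with 1 of the 9 (Ms4a1) among those higher. Without a filter edgeR called 1 gene higher after adjustment. Before it, 426 of 26045 genes were higher and 510 lower, with 2 of the 9 (Ms4a1 and Cd79b) among those higher. With at least 10 counts required in every mouse, 4 of the 9 genes were left and 4 were above 0. With voom quality weights, 268 genes were higher at an unadjusted p under 0.05. With the replicate number as a block, 2 of the 9 (Cd79a and Cd79b) had an unadjusted p under 0.05, beside 1.2% of all genes higher (175 genes, with 196 lower). Same-numbered residuals correlated at 0.158, 0.0282 and 0.016, beside a mean of -0.0333 over the 6 other pairs. So few values cannot show whether the numbers paired the mice, and the labels name no pairs. Leaving out single mice gave 58 to 580 genes higher and 107 to 617 lower at an unadjusted p under 0.05 in edgeR. Of the 9, 0 to 3 were among them, with 3 only without CTL replicate 1, where 580 of 14724 genes were higher. Between 7 and 9 of the 9 were above 0. Between 3 and 7 were without overlap, beside 7.54% to 14.1% of genes. The order of the 9 genes by fold change also depended on the setting. The leave-one-out counts without overlap, and the profile search and the list counts without CTL replicate 2, were chosen after seeing the data. The causes of these changes were not tested. Genes of under 3 counts in a mouse were under the detection limit used. Among the 9, these were Fcer2a, Pax5, Ebf1 and Blnk in CTL replicate 2, and Cr2 in CTL replicate 3. CTL replicate 3, a shallower library, had 12, 8, 12 and 28 counts of Fcer2a, Pax5, Ebf1 and Blnk. Why CTL replicate 2 had none was not tested.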
